A study of Mus musculus with 20 samples.

Results

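The cardiac calcium and ion channel set is made of 9 genes, Ryr2, Atp2a2, Pln, Casq2, Slc8a1, Kcnj2, Kcnq1, Kcnd2, and Gja1, out of 55401 genes in the count table. The members were chosen by name, and each name has a single row in the table. They were followed in 20 mRNA libraries from 5 organs (heart, kidney, spleen, liver, and small intestine) of WT mice and of Nsun6-KO mice, with 2 libraries per organ and genotype. KO mice carried a deletion of exons 3 and 4 of Nsun6, an RNA cytosine methyltransferase, made with CRISPR in C57BL/6J eggs and bred to homozygosity, and the mice were 8-week-old females. No source used here says whether one animal gave several organs, so p-values measure the spread between these libraries. Tissue was dissected, frozen, and ground, so cell types are mixed, and whether whole organs were used is not stated. The study asked whether loss of Nsun6 changed mRNA levels in these organs.

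A heartbeat starts when the membrane depolarises and calcium entering the cardiomyocyte opens the ryanodine receptor of the sarcoplasmic reticulum, the intracellular calcium store. The released calcium drives contraction. Relaxation follows when pumps of the store and exchangers of the cell membrane clear it, while potassium channels restore the resting potential and gap junctions pass the current to the next cell. Within the set, Ryr2 encodes the release channel, Casq2 the calcium buffer inside the store, Atp2a2 the pump that refills it, and Pln, phospholamban, the small inhibitor of that pump. Slc8a1 encodes the sodium-calcium exchanger of the cell membrane. Kcnj2 encodes an inward rectifier that holds the resting potential, Kcnq1 the pore of the slow delayed rectifier, and Kcnd2 a pore of the transient outward current. Gja1 encodes the main connexin of ventricular gap junctions.

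The members lie on 8 chromosomes of GRCm38, and only Pln and Gja1 share one. Ryr2 (ENSMUSG00000021313) extends over chromosome 13 from 11553102 to 12106945 on the minus strand and has the longest exon sequence, 28790 bases. Atp2a2 (ENSMUSG00000029467) is on chromosome 5 from 122453513 to 122502225, minus strand. Pln (ENSMUSG00000038583) and Gja1 (ENSMUSG00000050953) are on the plus strand of chromosome 10, from 53337667 to 53345987 and from 56377330 to 56402513. Casq2 (ENSMUSG00000027861) is on chromosome 3 from 102086415 to 102146514, plus strand. Slc8a1 (ENSMUSG00000054640) is on chromosome 17 from 81373105 to 81738377, minus strand. Of the potassium channels, Kcnj2 (ENSMUSG00000041695) is on chromosome 11 from 111066164 to 111076821, Kcnq1 (ENSMUSG00000009545) on chromosome 7 from 143106362 to 143427042, and Kcnd2 (ENSMUSG00000060882) on chromosome 6 from 21215503 to 21729805, all on the plus strand. Of the 2759 exon bases of Pln, 1785 (64.7%) are shared with genes of the opposite strand, Gm47644 and Cep85l. Reads there count for neither gene unless strand is used, so the level of Pln per exon base may be understated. The shared part was 121 bases in Kcnq1, 304 in Slc8a1, and 83 in Atp2a2, and there was none in the other 5 members.

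RefSeq promoter windows of the GRCm38.p6 build were matched by symbol to 7 members, not to Atp2a2 and Kcnq1. The 250 bases before the start site are shown for Pln and Casq2, members with levels near or above 1000 RPKM in the heart (below), and for Kcnd2, which was close to 0 in every other organ but had a low level in the heart. Capitals mark matches to the 6 motifs searched on both strands. They are chr10:53337436-53337685 (plus strand), chr3:102086165-102086414 (plus strand), and chr6:21215096-21215345 (plus strand), written 5′ to 3′.
Pln: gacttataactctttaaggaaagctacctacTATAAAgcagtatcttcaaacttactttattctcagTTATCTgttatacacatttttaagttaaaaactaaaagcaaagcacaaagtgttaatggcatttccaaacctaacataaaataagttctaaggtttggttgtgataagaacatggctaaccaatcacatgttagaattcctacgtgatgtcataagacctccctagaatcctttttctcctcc
Casq2: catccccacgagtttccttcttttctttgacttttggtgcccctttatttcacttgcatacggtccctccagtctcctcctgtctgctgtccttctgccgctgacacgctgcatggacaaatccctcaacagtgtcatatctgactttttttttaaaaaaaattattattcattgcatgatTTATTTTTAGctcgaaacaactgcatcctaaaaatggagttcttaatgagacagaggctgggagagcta
Kcnd2: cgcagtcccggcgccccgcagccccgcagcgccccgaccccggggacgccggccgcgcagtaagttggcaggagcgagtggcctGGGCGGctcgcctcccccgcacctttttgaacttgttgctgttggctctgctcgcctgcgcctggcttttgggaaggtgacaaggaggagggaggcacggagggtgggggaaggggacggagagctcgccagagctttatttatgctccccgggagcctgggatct
The Pln window holds TATAAA 219 bases before the start and, on the other strand, AGATAA 183 bases before it. The Casq2 window holds a match to the MEF2 site 69 bases before the start, and that of Kcnd2 holds GGGCGG 166 bases before it. Among all 32851 windows, TATAAA was in 12.4%, AGATAA in 9.99%, GGGCGG in 32.7%, and the MEF2 site in 2.92%. AGATAA was in 3 of the 7 member windows (Pln, Gja1, and Slc8a1) and GGGCGG in 2 (Kcnj2 and Kcnd2). CATTCC (in 12.6% of all windows) and the CArG box (1.47%) were in none of the 7. The windows differed in base composition, with 32.8% G and C for Pln, 41.6% for Casq2, and 68.8% for Kcnd2 against a median of 52.4% over all windows. No match overlapped another, and a match is only a run of letters, not evidence of binding.

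Total counts per library ranged from 15897446 to 44508197, with a median of 28513950. In the heart they were 17959542 and 36090637 in WT replicates 1 and 2, and 15897446 and 41763236 in KO replicates 1 and 2. The organ label was checked with cardiac muscle markers. The list holds 8 genes, of which Ryr2 is itself a member and was left out here. The other 7 summed to 58144, 45262, 58932, and 56147 counts-per-million (CPM) in the 4 heart libraries, in the order just given, while those of intestinal epithelium summed to at most 1.29 CPM there. Counts over the whole of Nsun6 do not single out its deleted exons and so do not check the genotype. They came to 7.03 and 6.65 CPM in WT hearts and to 6 and 5.5 CPM in KO hearts. Over all organs, they ranged from 4.36 to 9.82 CPM in WT and from 3.32 to 9.68 CPM in KO libraries.

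Levels below are RPKM (reads per kilobase of exon and per-million of library size, TMM-normalised across all 20 libraries), which allow genes to be compared per length. All 9 members were highest in the heart, where together they took 1.39%, 1.52%, 1.46%, and 1.79% of all counts in WT replicates 1 and 2 and KO replicates 1 and 2. In the other 16 libraries that share lay between 0.0113% and 0.0761%. In the heart the levels fell into 3 ranges. Atp2a2 (1462 ± 204, SD, n = 4), Pln (1086 ± 190), and Casq2 (825 ± 210) made up the first. Ryr2 (42 ± 17.9), Gja1 (38.2 ± 8.43), Slc8a1 (27 ± 3.41), and Kcnj2 (19.8 ± 6.22) made up the second, and Kcnd2 (4.86 ± 0.188) and Kcnq1 (4.47 ± 0.838) the last. Neighbours within a range overlapped in their libraries, whereas the ranges did not. If only exon bases shared with no other gene are counted as length, an alternative chosen after seeing the data, Pln had 3078 and Atp2a2 1482 RPKM, so the order of those genes depends on how the overlap is treated.

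**Figure D1:**
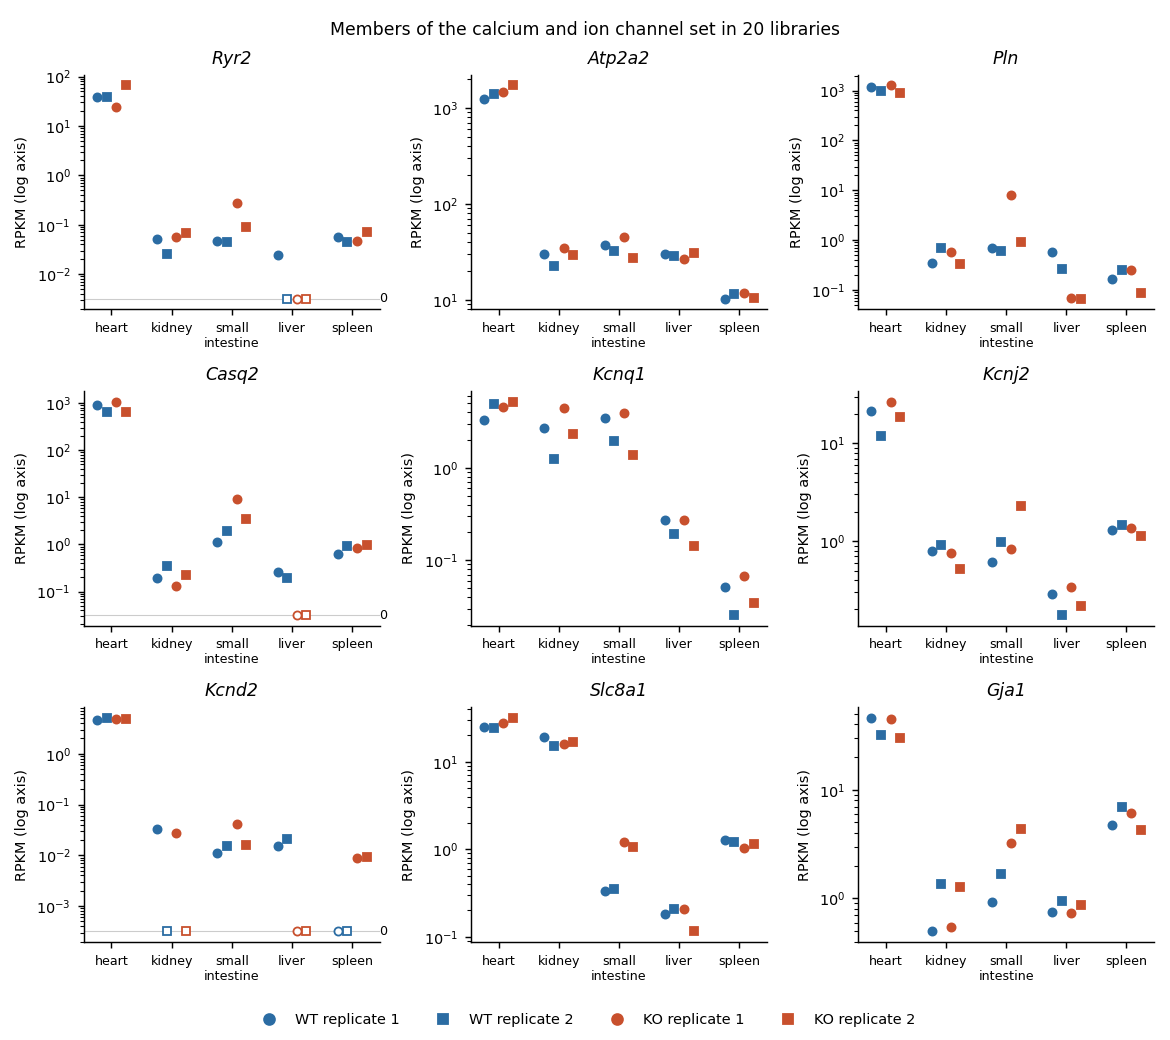
Level of each member in the 20 libraries, 1 panel per gene, as RPKM on a log axis against organ. Blue is WT and red KO, circles are replicate 1 and squares replicate 2, and open symbols on the grey line are libraries with 0 counts. The heart libraries stand above all others for every member except Kcnq1, whose heart values overlap those of kidney and small intestine.

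To ask where the set is expressed, the heart was compared with the mean of the other 4 organs in one fit of all libraries, with both genotypes averaged. All 9 members passed the filter on low counts, Kcnd2 only through the heart libraries. The other members were all called higher in the heart (edgeR quasi-likelihood test with p adjusted by Benjamini-Hochberg under 0.1, and a fold over 2). Kcnd2 was called too, but it entered the test through the heart alone, so its call adds no support here or below. Of all 23159 genes tested, 22.5% were called higher. The median log2 difference was 5.92 over the members, Kcnd2 included, and -0.15 over all genes. In bulk RNA, more cells of a type and more RNA per cell cannot be told apart. The comparisons of the heart with single organs below share the heart libraries. In them, 9 members were called higher than in liver (24.8% of genes tested), 9 than in spleen (25.2%), 8 than in small intestine (25.9%), and 7 than in kidney (18.1%). Each of these numbers includes Kcnd2, which adds no support for the reason given above. As background for the order of organs given below, 38.0%, 44.5%, 52.6%, and 53.5% of all genes were called in either direction between heart and kidney, liver, spleen, and small intestine. Kidney differed from liver, small intestine, and spleen in 34.7%, 45.7%, and 50.5% of genes, small intestine from liver and spleen in 46.3% and 49.5%, and liver from spleen in 52.2%.

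The genes of the calcium store were nearly restricted to the heart, apart from the pump. Ryr2 had 37.8 and 38.4 RPKM in WT hearts and 24.7 and 67 in KO hearts, while the highest library outside the heart had 0.28. Its mean in the heart was 738 times that of the other organs (adjusted p = 4.22e-10, edgeR). In liver, all 18 Ryr2 counts were in WT replicate 1, and the other liver libraries had 0. Because KO liver had no counts of Ryr2 or Casq2, fitted folds against liver depend on the prior count of the model and are not given for these genes. Casq2 reached 913 and 647 RPKM in WT hearts and 1081 and 658 in KO hearts, 650 times the mean of the other organs (adjusted p = 2.78e-12, edgeR). Its level was 3.89 ± 3.62 in small intestine, 0.846 ± 0.149 in spleen, 0.222 ± 0.0924 in kidney, and 0.113 ± 0.134 in liver (SD, n = 4 each). The steps of this order down to kidney passed the test. The step from kidney to liver did too, but it rests on KO livers with 0 counts, so its call adds no support. Kidney and liver libraries overlapped. Pln had 1203 and 979 RPKM in WT hearts and 1286 and 878 in KO hearts. The mean was 1245 times that elsewhere, the highest ratio in the set, and the fitted log2 difference, which averages log levels, was 11.37 (SE 0.42, adjusted p = 2.90e-11, edgeR). Outside the heart Pln stayed under 1 RPKM in all libraries except KO replicate 1 of the small intestine, which had 8.03. Without that library, the ratios of means were 2607 for Pln and 991 for Casq2, and 972 for Ryr2.

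Atp2a2 differed from these 3 genes in that it was well expressed in every organ. It had 1234 and 1410 RPKM in WT hearts and 1477 and 1726 in KO hearts. Elsewhere the means were 35.8 ± 7.85 in small intestine, 29.2 ± 5.2 in kidney, 29.1 ± 1.9 in liver, and 11.1 ± 0.693 in spleen (SD, n = 4 each). The heart stood 5.92 above the other organs on the log2 scale (SE 0.17, adjusted p = 2.16e-12, edgeR). Small intestine, kidney, and liver were not told apart from one another in this order, whereas liver was above spleen by 1.40 (SE 0.24, adjusted p = 0.000218, edgeR). Set side by side, Pln stood at 1086 and its pump at 1462 RPKM in the heart, and at 2.56 and 35.8 RPKM in small intestine, the organ with the next highest level of both. Without KO replicate 1 of the small intestine these were 0.732 and 32.5 RPKM.

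Slc8a1, the exchanger of the cell membrane, had a high level in one other organ, the kidney. Its levels were 24.7 and 24.2 RPKM in WT hearts and 27.4 and 31.7 in KO hearts, and 19.4 and 15 in WT kidneys and 16 and 16.9 in KO kidneys. The libraries did not overlap, but the heart was above the kidney by only 0.68 on the log2 scale (SE 0.19, 95% interval 0.27 to 1.08, adjusted p = 0.01, edgeR), less than the 2-fold threshold. Kidney was above the next organ, spleen (1.17 ± 0.106 RPKM, SD, n = 4), by 3.84 (SE 0.21, adjusted p = 9.73e-09, edgeR). Small intestine and liver held 0.74 ± 0.463 and 0.178 ± 0.0435 RPKM.

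The 3 potassium channels differed in how far they were confined to the heart. Kcnd2 had 4.67 and 5.09 RPKM in WT hearts and 4.92 and 4.75 in KO hearts, the smallest spread of the set relative to its mean, and 2713 counts in all. All 16 other libraries together held 12 counts in small intestine, 10 in kidney, and 4 each in liver and spleen. Its heart mean was 389 times that elsewhere. It passed the filter only through the heart, so no p is given, and with so few counts the order of the other organs could not be resolved. Kcnj2 had 21.7 and 11.8 RPKM in WT hearts and 26.8 and 18.8 in KO hearts. It was also present in spleen (1.31 ± 0.129, SD, n = 4), small intestine (1.17 ± 0.742), and kidney (0.745 ± 0.16), whose neighbouring steps were not called, and the heart was above the other organs by 4.76 (SE 0.22, adjusted p = 2.67e-10, edgeR).

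Kcnq1, which also forms potassium channels of epithelia, was the member least confined to the heart. It had 3.28 and 4.86 RPKM in WT hearts and 4.54 and 5.21 in KO hearts. The small intestine had 3.49 and 1.96 in WT and 3.96 and 1.37 in KO, and the kidney 2.68 and 1.26 in WT and 4.42 and 2.35 in KO. These ranges overlapped, and heart exceeded small intestine by 0.72 (SE 0.40, 95% interval -0.14 to 1.59, adjusted p = 0.142) and kidney by 0.78 (SE 0.40, 95% interval -0.08 to 1.65, adjusted p = 0.141) without passing the edgeR test. Liver (0.22 ± 0.0626 RPKM, SD, n = 4) and spleen (0.0445 ± 0.0183) were lower, each step by a called difference. Without KO replicate 1 of the small intestine, Kcnq1 was called higher in the heart than in small intestine, which made 9 members, Kcnd2 included (24.3% of all genes). With 3 libraries that hold markers of other organs left out together, the difference between heart and small intestine was 1.20 (SE 0.44, adjusted p = 0.0387, edgeR), past the threshold, as for 24.2% of all genes.

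Gja1, the connexin, had 45.9 and 31.7 RPKM in WT hearts and 45.1 and 30.2 in KO hearts. Spleen came next with 5.53 ± 1.22 (SD, n = 4), followed by small intestine (2.57 ± 1.56), kidney (0.919 ± 0.46), and liver (0.824 ± 0.105). The heart was above spleen by 2.79 (SE 0.36, adjusted p = 1.61e-05, edgeR), and of the steps below it only that from kidney to liver was not called, although libraries of neighbouring organs overlapped.

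**Figure D2:**
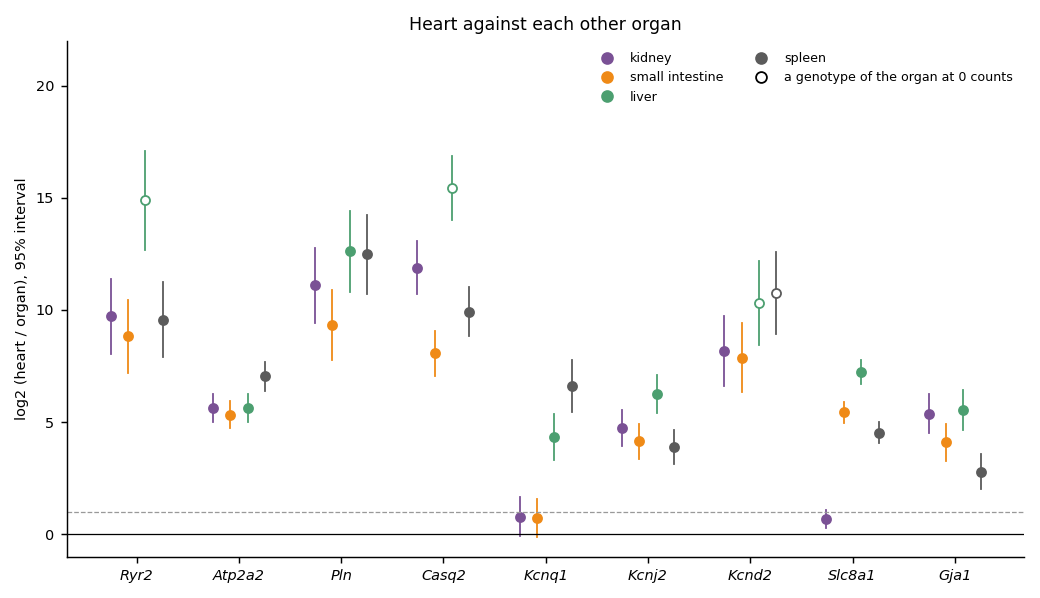
Fitted log2 difference between heart and each other organ for the 9 members, as points with 95% intervals (edgeR, both genotypes averaged). Open points mark organs in which a genotype had 0 counts, whose fitted values depend on the model's prior count, and the dashed line is a fold of 2. Kcnq1 against kidney and small intestine and Slc8a1 against kidney lie under the dashed line, and all other points lie above it.

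Other genes of cardiac calcium and current handling, a list of 52 genes, were set beside the members. In the heart 41 were called higher and 2 lower than in the other organs, against 22.5% of all genes called higher and 17.5% lower, and the median log2 difference was 5.31. Of the 41, 37 had their highest mean level in the heart. The other 4 were higher in another organ, Trpm4, Camk2d, and Cacna1h in small intestine (18, 13.1, and 1.52 RPKM against 2.72, 9.18, and 0.538 in the heart) and Scn4b in kidney (6.73 against 4.70 RPKM). All 13 potassium channels and subunits were called higher, as were all 3 pacemaker channels and all 5 genes of a group of connexins, membrane scaffolds, and the cation channel Trpm4. Of the 16 genes of store release and its regulators 10 were called higher and 1 lower, and of 9 genes of extrusion and sodium channels 5 were called higher and none lower. Of 6 calcium entry channels, 5 were called higher and 1 lower. These numbers of calls include genes with very few counts outside the heart. Strit1 had 3 there, all in kidney, and Kcna4 had 16, all in small intestine. Calls of such genes rest on the heart libraries and add no support. Hrc, a histidine-rich calcium-binding protein of the store, had a log2 difference of 11.92 (SE 0.48, adjusted p = 1.23e-10, edgeR), and Trdn, triadin, which anchors calsequestrin to the release channel, one of 11.91 (SE 0.61, adjusted p = 8.02e-09, edgeR). Kcnj11, the pore of the ATP-sensitive potassium channel, Kcnj3, a pore of the muscarinic potassium channel, and Sln, sarcolipin, the atrial relative of phospholamban, followed. Each of these 3 had 0 counts in 1 or 2 other organs, so their fitted differences and rank depend on the prior count, and they are given by their levels in the heart, 30.1, 20.5, and 80.9 RPKM. At the other end were Cacna1d, a calcium channel of pacemaker and endocrine cells, at -1.32 (SE 0.31, adjusted p = 0.00267, edgeR), and Itpr2, an inositol trisphosphate receptor, at -1.30 (SE 0.23, adjusted p = 0.000302, edgeR). The calmodulin gene Calm2 (-0.76) and the membrane calcium pump gene Atp2b1 (-0.60) had adjusted p under 0.1 but did not reach a 2-fold difference.

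Relatives of the members showed how much of each family's RNA in the heart came from the member. Ryr1 and Ryr3, the other ryanodine receptors, were at 0.009 and 0.136 RPKM in the heart against 42 for Ryr2. Ryr1 had 0.324 RPKM in spleen and 0.0504 in small intestine, and in kidney and liver (0.00829 and 0.00678) it was close to its level in the heart. Atp2a1, the pump of fast skeletal muscle, was at 0.213 RPKM, and Atp2a3, the pump of blood and epithelial cells, was at 1.90 in the heart, 37.3 in spleen, and 26.7 in small intestine. Spleen was thus the organ where Atp2a2 was lowest and Atp2a3 highest. Casq1, the skeletal calsequestrin, had a mean of 7.32 RPKM in the heart and of 0.558 in small intestine, the next organ, where 1 library reached 1.39. The further small regulators of the pump were at 80.9 (Sln), 24.9 (Strit1), and 1.21 (Mrln) RPKM in the heart, against 1086 for Pln. Kcnj12, a relative of Kcnj2, was at 6.33 and Kcnd3, a relative of Kcnd2 and pore of the same current, at 2.88. Slc8a2 and Slc8a3 were at 0.125 and 0.0591. Among connexins, Gjc1, Gja4, and Gja5 were at 5.17, 5.02, and 1.32 RPKM against 38.2 for Gja1.

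Across the 20 libraries, the genes whose levels ran most nearly with a member were found among 17892 genes by Pearson's r of log2(RPKM + 0.1). These r describe libraries that share organs and are given without a p. Ryr2 was closest to Myh7, Cmya5, and Mhrt (0.997, 0.997, and 0.996), and Pln to Myl3, Myh6, and Rnf207 (0.993, 0.991, and 0.991). Casq2 was closest to Tnnt2, Atcayos, and Actn2 (0.992, 0.991, and 0.990), and Atp2a2 to Pdlim5, Kcnj11, and Pde4dip (0.985, 0.981, and 0.980). For Kcnd2 these were Mylk4, Gm31663, and Gm13943 (0.998 each), and for Kcnj2 they included Sspn and Rtn2 (0.977 and 0.975). Slc8a1 had Trabd2b and P2rx5 among them (0.980 and 0.977), and Gja1 had Dpt, Fbxw7, and Gask1b (0.985, 0.978, and 0.974). For Kcnq1 the r were lower, at 0.959 (Uaca), 0.956 (Unc13b), and 0.950 (Fbh1). Between members, r reached 0.99 (Ryr2 and Kcnd2) and was lowest for Kcnq1 and Gja1 (0.24). Of the genes nearest to Ryr2, Pln, and Casq2, Myh7, Myh6, Myl3, Tnnt2, and Actn2 encode sarcomere proteins. Dpt, nearest to Gja1, encodes a matrix protein of fibroblasts.

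The second question was whether loss of Nsun6 changed the members. In the heart, none of the 9 members was called between KO and WT (edgeR within the heart, adjusted p = 1 for each), none had an unadjusted p under 0.05, and DESeq2 called none. Of all 16632 genes tested in the heart, 0% were called in either direction by edgeR, with 31 genes higher and 86 lower at an unadjusted p under 0.05, and DESeq2 called 2 lower. The largest log2 difference of a member was that of Kcnj2, 0.42 (SE 0.36, 95% interval -0.42 to 1.27), followed by Atp2a2 with 0.26 (SE 0.40), Ryr2 with 0.25 (SE 0.50), Slc8a1 with 0.25 (SE 0.29), and Kcnq1 with 0.24 (SE 0.31). Casq2 was at 0.14 (SE 0.41), Pln at -0.03 (SE 0.39), Kcnd2 at -0.04 (SE 0.25), and Gja1 at -0.06 (SE 0.35). Taking all members, the 95% intervals reached from -0.95 to 1.42, so 2 libraries per genotype leave the size of a change loosely bounded. These intervals are not limits of detection. A call also needs a p adjusted over all genes tested, so larger changes could go uncalled too. The narrowest interval was that of Kcnd2, from -0.63 to 0.56.

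Both KO hearts were above both WT hearts for Atp2a2 and Slc8a1, and in no member were both KO hearts below. Among all genes tested in the heart, 8.59% had both KO libraries above and 8.65% both below. The other 7 members overlapped. Replicates of the same number share no stated animal, but ratios within a number set libraries of like naming side by side. Within replicate 1, the log2 ratio of KO to WT was -0.62 for Ryr2, 0.26 for Atp2a2, 0.10 for Pln, 0.24 for Casq2, 0.15 for Slc8a1, 0.30 for Kcnj2, 0.47 for Kcnq1, 0.07 for Kcnd2, and -0.03 for Gja1. Within replicate 2 it was 0.80, 0.29, -0.16, 0.02, 0.39, 0.67, 0.10, -0.10, and -0.07 in the same order. The sign thus differed between the replicate numbers for Ryr2, Pln, and Kcnd2, by most for Ryr2.

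**Figure D3:**
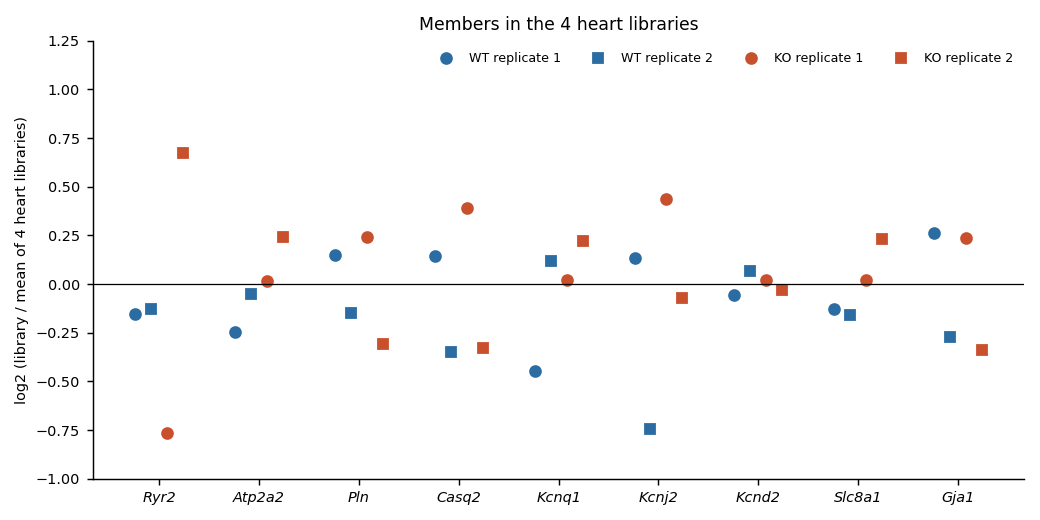
Level of each member in the 4 heart libraries as log2 of its RPKM over the mean of those libraries. Colours and symbols are those of the organ plot. For Pln, Casq2, Gja1, and Kcnj2 both replicate 2 libraries lie below both replicate 1 libraries, and for Ryr2 KO replicate 2 is highest and KO replicate 1 lowest.

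The heart replicates differed by more than the genotypes for several members, and the difference went with gene length. Over 11543 genes with a mean of at least 100 counts, the median log2 ratio of replicate 2 to replicate 1 (CPM) rose from -0.57 in genes with up to 1000 exon bases to 0.16 in genes over 12000 in WT, and from -0.96 to 0.47 in KO. Across genes, which are not independent replicates, its Spearman rho with length was 0.30 in WT and 0.48 in KO. For Ryr2 the ratio was 0.02 in WT but 1.44 in KO, a 2.72-fold difference between KO hearts and the largest of any member. The short Pln and Casq2 were lower in replicate 2, by -0.30 and -0.50 in WT and by -0.55 and -0.72 in KO. The order of the members did not follow length alone, since Gja1, with 10257 exon bases, was at -0.53 in WT and -0.58 in KO, and Kcnj2, with 5444, at -0.87 and -0.51. In the headers of the count table, the names of the replicate 2 hearts also carry a word, pre, that those of replicate 1 lack, and the replicate 2 hearts had more counts, as given above.

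**Figure D4:**
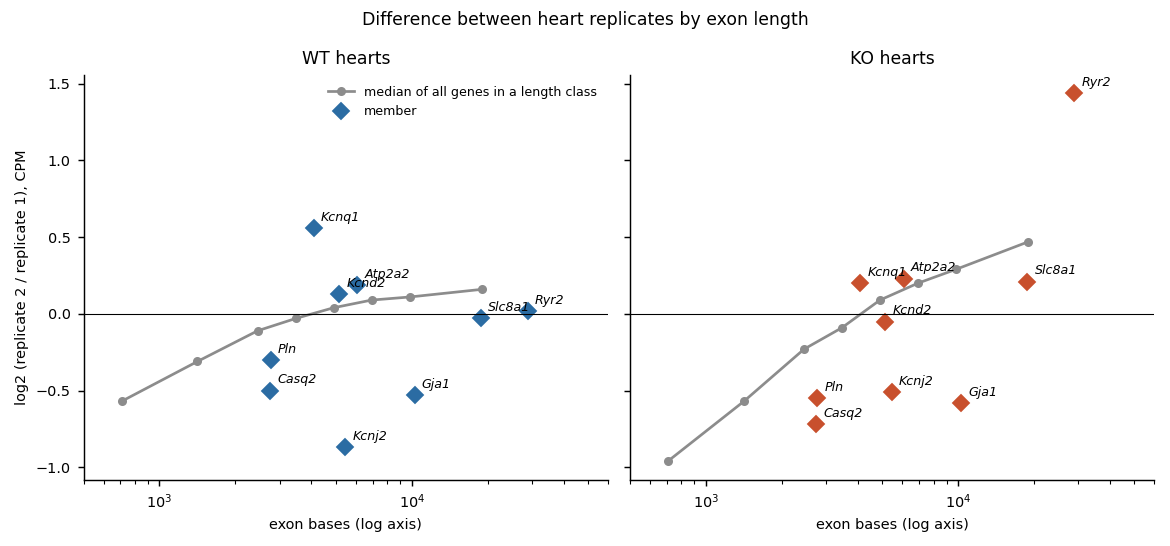
Log2 ratio of replicate 2 to replicate 1 in WT hearts (left) and KO hearts (right) against exon length on a log axis. Grey points are medians of all genes in 8 length classes, drawn at the middle of each class, and diamonds are the members. The medians rise with length in both genotypes, and Ryr2 in KO, at 1.44, stands above them.

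Markers of the heart's chambers and of other tissues also differed between the heart libraries. The 7 atrial markers summed to 869 and 1550 CPM in WT replicates 1 and 2 and to 93.3 and 555 CPM in KO replicates 1 and 2, with Myl4 most abundant in all but KO replicate 1, where it was Nppa, and Bmp10 at 0 in both replicate 1 libraries. The 4 ventricular markers, led by Myl2, summed to 38119 and 26607 CPM in WT and to 44584 and 21667 CPM in KO. The 4 adipocyte markers, led by Cfd, came to 1.62 and 185 CPM in WT and 5.17 and 63.8 CPM in KO, with Lep at 0 in both replicate 1 libraries. Pln, Casq2, Gja1, and Kcnj2 and the ventricular sum were lower in both replicate 2 libraries. The sum is mostly Myl2 and Myl3, and of the other ventricular markers Mylk3 had log2 ratios of replicate 2 to replicate 1 of 0.06 in WT and -0.11 in KO, and Irx4 of -0.60 and 0.53. The part of these markers in the members' values was not tested.

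In the list of 52 calcium and current genes none was called between KO and WT hearts, with 38 differences positive and 14 negative and a median of 0.07 against -0.01 over all genes. A single gene had an unadjusted p under 0.05. It was Hcn4, a pacemaker channel of the sinus node, with 0.508 and 0.472 RPKM in WT and 0.723 and 1.32 in KO (log2 difference 1.06, SE 0.43, adjusted p = 1, edgeR). Strit1 came next (0.77, SE 0.45). On the negative side, Sln had 95.7 and 181 RPKM in WT and 2.16 and 45.1 in KO (log2 difference -2.55, SE 1.12, adjusted p = 1, edgeR). Sln is itself on the atrial list. The 5 atrial markers outside the 52 genes summed to 733 and 1304 CPM in WT and 83.9 and 489 CPM in KO, and their part in the Sln values was not tested. With KO replicate 2 left out it was called lower (-6.02, SE 0.55, adjusted p = 0.000625, edgeR), with 0.0731% of all genes and none of the members. The atrial connexin gene Gja5 was at -0.55 (SE 0.34) and the kinase gene Camk2d at -0.28 (SE 0.26).

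Outside the heart, 8 members passed the filter in small intestine, 8 in kidney, 7 in liver, and 7 in spleen, and edgeR called none between KO and WT in any of these organs. Of all genes tested it called 0% in small intestine and kidney, 0.0509% in liver, and 0.223% in spleen. At an unadjusted p under 0.05 there were 4 in small intestine, where 2.39% of all genes were under it, and none in kidney and spleen (0.638% and 5.14%). In liver none of the 5 members that passed the filter in both genotypes was under it (4.70% of all genes). DESeq2 called 1, Slc8a1 in small intestine (log2 difference 1.68, SE 0.43, adjusted p = 0.0477), among 0.266% of all genes that it called higher there. The genotype difference in the heart was not called different from the mean of those elsewhere for any member (adjusted p = 1 for each, edgeR fit of all libraries). Of all genes tested, 0% were called. For Kcnd2 the SE was 82.22, so its comparison could not have given a call. For Ryr2 and Casq2 the mean elsewhere includes KO livers with 0 counts, so their fitted values depend on the prior count.

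In the small intestine, both KO libraries were above both WT libraries for 6 of the 9 members and below for none. Of the 8 that passed the filter these were 5, and of all genes that passed it 15.1% had KO above and 10% KO below. The sixth, Kcnd2, had 6 and 2 counts in KO and 2 in each WT library. Pln had 0.695 and 0.604 RPKM in WT and 8.03 and 0.897 in KO. Casq2 had 1.13 and 1.93 in WT and 9.13 and 3.39 in KO, and Ryr2 had 0.0464 and 0.0441 in WT and 0.28 and 0.0917 in KO. For these 3 genes KO replicate 1 stood apart. The same library also held markers of cardiac muscle. As a percentage of the heart mean, the median of 9 cardiac muscle markers (the 7 above with Myl2 and Myl3) was 0.553% there (range 0.371% to 0.678%), against 0.00797%, 0.00909%, and 0.0124% in WT replicates 1 and 2 and KO replicate 2. Pln, Casq2, Ryr2, and Kcnd2 were at 0.739%, 1.11%, 0.666%, and 0.869% of their heart means in KO replicate 1. Ryr2 was within the range of the markers, and the other 3 were above it. The remaining 5 members were at 3.13% (Atp2a2) to 88.6% (Kcnq1). The 7 markers of the cardiac list that are not members summed to 279 CPM in this library, led by Actc1 and with none at 0, and the ventricular Myl2 was at 170 CPM. With this library left out, the differences of Pln, Casq2, and Ryr2 were 0.45 (SE 0.81), 1.14 (SE 0.71), and 1 (SE 0.81) on the log2 scale, from 2.72, 1.99, and 1.98 with it (adjusted p = 1 for each, edgeR).

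Slc8a1 and Gja1 behaved otherwise, being high in both KO libraries of the small intestine. Slc8a1 had 0.329 and 0.354 RPKM in WT and 1.20 and 1.07 in KO (log2 difference 1.69, SE 0.33, unadjusted p = 0.00509, adjusted p = 1, edgeR). Gja1 had 0.924 and 1.68 in WT and 3.27 and 4.40 in KO (1.52, SE 0.43, unadjusted p = 0.0199, adjusted p = 1, edgeR). Leaving out KO replicate 1 gave 1.64 (SE 0.54) and 1.74 (SE 0.53). The 6 smooth muscle markers, none of them at 0, summed to 219 and 343 CPM in WT and to 1774 and 1090 CPM in KO. They were led by Myh11, Acta2, Actg2, and Acta2 in that order. Like both genes, and like Pln, Casq2, and Ryr2, this sum was higher in both KO libraries than in both WT libraries. Between the KO libraries it was higher in replicate 1, whereas Gja1 was higher in replicate 2. The 5 markers of neurons and Cajal cells, led by Kit or Ano1 and with none at 0, were also higher in KO, at 56.5 and 31.7 CPM against 21.7 and 16.9 CPM in WT. The part of these cells in the members' values was not tested.

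**Figure D5:**
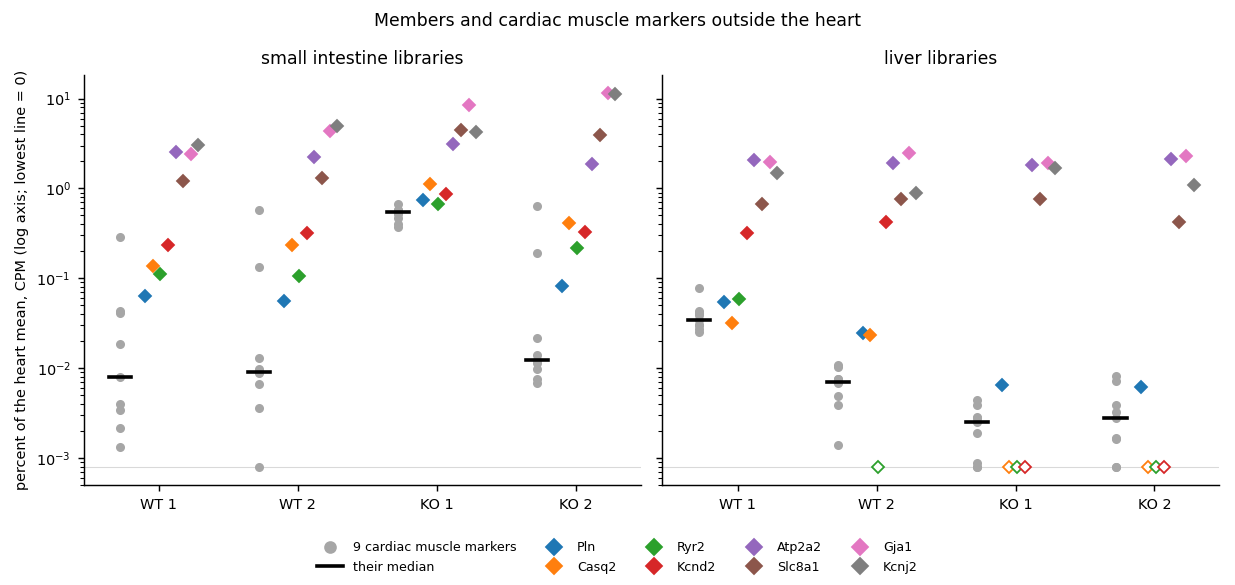
Percent of the heart mean (CPM, log axis) in each small intestine library (left) and liver library (right). Grey circles are 9 cardiac muscle markers with their median as a black bar, coloured diamonds are 8 members (all but Kcnq1), and symbols on the lowest line are 0. In KO replicate 1 of the small intestine the markers lie between 0.371% and 0.678%, and in WT replicate 1 of the liver their median is 0.034%.

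In the liver, Pln and Casq2 were lower in both KO libraries than in both WT libraries, without a call, and so was Kcnd2, which had few counts and did not pass the filter. Of all genes that passed it, 16.1% had KO below and 17.1% KO above. Atp2a2 and Ryr2 overlapped. Pln had 0.587 and 0.269 RPKM in WT and 0.0703 and 0.0667 in KO (41 and 14 counts against 4 and 5). Casq2 had 18 and 10 counts in WT and 0 in both KO livers, at least 10.1-fold lower when a floor of 3 counts over both KO libraries is set. Both genes passed the filter only through their WT counts, so no p is given. WT replicate 1 of the liver held cardiac muscle markers at a median of 0.034% of the heart mean, and WT replicate 2 at 0.00698%, while both KO libraries were at 0.00251% and 0.00278%. In WT replicate 1, Pln, Ryr2, and Casq2 were at 0.054%, 0.0588%, and 0.0315% of their heart means, within the range of those markers, 0.0253% to 0.0776%. In WT replicate 2, Pln and Casq2 were at 0.0248% and 0.0235%, above the markers' range of 0.00138% to 0.0108%, and Ryr2 was at 0. For comparison, the medians of the markers were 0.0161% to 0.0613% in spleen and 0.00378% to 0.00914% in kidney libraries. The part of cardiac RNA in these counts was not tested.

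In kidney and spleen no member was called, and the intervals were wide in kidney. Kcnq1 in kidney, at 2.68 and 1.26 RPKM in WT and 4.42 and 2.35 in KO, had a log2 difference of 0.74 (SE 0.57, adjusted p = 1, edgeR), and was called only when WT replicate 1 was left out (1.42, SE 0.42, adjusted p = 0.0351, edgeR), in a fit that called 16.1% of all genes. Ryr2 in kidney was at 0.66 (SE 0.62, 95% interval -0.89 to 2.21) and Casq2 at -0.63 (SE 0.76, 95% interval -2.53 to 1.28). In kidney both KO libraries were above both WT libraries for Ryr2 and below them for Kcnj2 (-0.42, SE 0.47), against 11.7% and 9.3% of all genes. In spleen they were below for Slc8a1 (-0.16, SE 0.17), against 16.9%, and above for Kcnd2, which did not pass the filter (14.7% of genes that did). Slc8a1 in kidney differed by -0.09 (SE 0.36), and Atp2a2 in spleen by 0.07 (SE 0.16), the smallest error of a member in any organ.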

How the data were processed

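Poly(A) RNA of 5 organs was sequenced in 20 libraries, grouped by the organ, genotype, and replicate number of the labels. The authors trimmed reads with cutadapt, mapped them with HISAT2 2.1.0 to mm10, and counted them with featureCounts 2.0.1 on Ensembl exons (tools and build per the labels), and they deposited raw counts per gene and the exon length of each gene in bases, an other kind of value than a measurement. The methods state reverse-stranded counting of proper pairs, whereas the command in the table's header holds no such option. Even numbers made up 54.9% to 59.8% of counts from 10 to 50, where odd and even would be alike if pairs were counted once, so counts are not independent molecules and the spread between libraries sets the precision.

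From the counts, edgeR 4.0.16 (R 4.3.3) was used with TMM normalisation, filterByExpr, and the robust quasi-likelihood test. Organs were compared in one fit of all libraries, and genotypes within each organ. Genes were called at a Benjamini-Hochberg adjusted p under 0.1, adjusted over all genes tested, and a fold over 2. The SE is the log2 difference divided by the square root of F. The fits were tested on simulated data. DESeq2 1.42.0, which the methods name, was an alternative, besides other size factors, no filter, other thresholds, the replicate number as a block, WT libraries only, TPM, and each library left out. Leaving out 3 libraries with markers of another organ (small intestine KO replicate 1, liver WT replicate 1, and spleen WT replicate 2), unshared exon length, ratios of means without small intestine KO replicate 1, and ratios within a replicate number were added after seeing the data.

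The members and lists were chosen with earlier results of these data known. Named were all members and listed relatives, the 5 highest and 5 lowest of the 52 pathway genes between organs, the 3 smallest p in each direction between genotypes in the heart, and the 3 genes most correlated with each member, of which some are not reported here. Lists of skeletal muscle, fibroblast, endothelium, neuron, airway, hepatocyte, kidney tubule, erythroid, and B cell markers served to check organs, and their results are in the closing section.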

Additional observations from a re-analysis of the deposited data

Results flagged for a closer look

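Levels of each member in the 4 libraries of an organ were tested for a library far from the others, with Dixon's ratio of the gap to the range against 0.829, and 3 of 45 groups were beyond it. That cutoff is passed by about 1 in 20 groups of normally distributed values, and levels near 0 are not such values. With 3 libraries at 0, as for Ryr2 in liver, any count in the remaining library passes it. The number of groups beyond it is therefore not set against chance. Ryr2 in WT replicate 1 of the liver was at 0.0247 RPKM, and the other 3 liver libraries were at 0. Pln in KO replicate 1 of the small intestine was at 8.03 RPKM, against 0.604 to 0.897 in the others. Kcnd2 in that library was at 0.0422 RPKM, which is 6 counts against 2 in each of the others. In both of these libraries the median of the 9 cardiac muscle markers, as a percentage of the heart mean, was the highest of their organ, as given above. Their part in these values was not tested.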

How the results depend on the processing

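The 9 calls of higher members in the heart against the other organs were also 9 under every alternative run, including each of 20 libraries left out in turn and the 3 doubted libraries left out together. They include Kcnd2, which passed the filter only through the heart libraries, so the steady number speaks for the other members alone. The number of neighbouring organ pairs that differed was 21 of 36, and 20 to 22 with a library left out. These pairs include the steps of Ryr2 and Casq2 from kidney to liver, which depend on the prior count and add no support. Without a threshold on the fold, 6 pathway genes were lower in the heart instead of 2. Between genotypes, DESeq2 called 1 member higher in small intestine (Slc8a1), as it did 0.266% of all genes. Fits without a filter on low counts called 1 lower in liver (Casq2, 0 counts in KO). That call rests on few WT counts alone and adds no support. For all genes of the heart, the count called higher was 1 without the filter, and that called lower was 2 with DESeq2, 12 without the filter, and 6 with the replicate block, against 0 in each case. Leaving out a library gave 0 to 2 higher (2 without KO replicate 1) and 0 to 21 lower in the heart (21 without WT replicate 1 and 12 without KO replicate 2). It gave 0 to 1 pathway genes lower in the heart (Sln, without KO replicate 2) and 0 to 1 members higher in kidney (Kcnq1, without WT replicate 1, where 16.1% of all genes were called). The cause of these shifts was not tested. The sign of a KO difference in the heart depended on single libraries for Ryr2 (-0.65 to 0.82, negative without KO replicate 2), Pln (-0.31 to 0.22), Casq2 (-0.24 to 0.45), Kcnd2 (-0.07 to 0.03), and Gja1 (-0.36 to 0.26). These members were not called in any of these fits. Where a library was left out, the remaining library of its group was assumed to vary like the others.

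The labels give no shared animal, litter, or batch for libraries of the same replicate number. With 2 pairs per organ the correlation of their deviations was 0.481 in small intestine, 0.248 in heart, and 0.0121 to 0.073 in the other organs. The replicate block changed no call of a member. On the TPM scale the heart levels were higher (Atp2a2 3706, Pln 2657, Casq2 1996), and the order of organs was the same for 6 of 9 members, with lower organs trading places for Pln, Kcnq1, and Kcnd2. The genotype comparisons rest on 2 libraries each, and counts close to 0 limit those of Ryr2, Casq2, and Kcnd2 outside the heart.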

Other observations

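Marker lists of other cell types show what else the heart libraries held beside the members. Against the other organs, all 4 fibroblast markers, all 4 endothelial markers, and all 4 airway markers were called higher in the heart. The median log2 difference was 2.05 for fibroblast and 2.80 for endothelial markers. No median is given for airway markers. Scgb1a1, Sftpc, and Sftpa1 had 0 counts in kidney, so their fitted differences depend on the prior count. Also called higher were 2 of 6 skeletal muscle, 2 of 5 neuron and Cajal cell, 3 of 4 adipocyte, and 2 of 4 erythroid markers. All 4 hepatocyte markers, all 4 intestinal markers, all 3 B cell markers, and 1 of 4 kidney tubule markers were called lower. Of the 6 smooth muscle markers 1 was higher and 1 lower, and 1 of the neuron and Cajal cell markers was lower. The 7 atrial and 4 ventricular markers were all called higher. A call here is against the average of the other organs, and some genes called higher had a higher mean in 1 other organ. These were both skeletal muscle and both erythroid genes in spleen (Hbb-bs at 13011 RPKM against 2486 in the heart), the smooth muscle gene Acta2 and 1 neuron gene in small intestine, the airway gene Sftpa1 (1.36 against 0.267 RPKM) and the atrial Bmp10 in liver, and the atrial Dkk3 in kidney. Between KO and WT hearts edgeR called no marker.

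The airway markers, led by Scgb1a1, a secretory protein of the bronchial epithelium, summed to 37.6 and 54.5 CPM in WT hearts and 8.7 and 29.3 CPM in KO hearts. The erythroid markers, led by the globin gene Hbb-bs, summed to 2713 and 1913 CPM in WT and 4747 and 918 CPM in KO, lower in replicate 2 of both genotypes. B cell markers came to 1.18 and 21.2 CPM in WT and 1.80 and 2.18 CPM in KO. Fibroblast and endothelial sums, led by Dcn and Pecam1, varied less, from 1351 to 1829 and from 456 to 590 CPM. Outside the heart, hepatocyte markers reached 3024 CPM in WT replicate 2 of the spleen, led by Alb, against 6.07, 108, and 151 CPM in the other spleen libraries.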
